A study of Mus musculus with 20 samples.

Results

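The genes described are 34 immediate early and stress response genes of the mouse, measured by single-cell RNA-seq in the contused spinal cord. They were chosen by symbol and by no threshold on a measured value, with earlier results of these data known, and 34 of 34 were among the 16003 genes of the deposited count table. They comprise transcription factors of the AP-1, Egr, Nr4a and Klf families, the Ier genes, Btg2 and Rhob, RNA decay factors, Dusp phosphatases, feedback inhibitors and general stress genes. Their unique molecular identifiers (UMIs), each standing for 1 captured transcript, were summed for every cell cluster and library and are given as CPM (counts per 1000000 UMIs).

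Each of the 6 libraries was made from cells pooled from the cords of 3 to 4 female C57BL/6J mice, 8 to 10 weeks old. Mice received chow with 1200 ppm PLX5622, which blocks the Csf1 receptor and depletes microglia, or vehicle chow, from 2 weeks before surgery to the end point. Surgery was a 75 kdyne contusion at T9 or a laminectomy alone (sham). Injured mice were taken at 7 or 28 days post-injury (dpi), whereas the sham libraries carry both 7 and 28 days in their labels, so the sham library of a diet was the reference for both times. The inhibitor reaches any cell that depends on the receptor. From each animal 1 cm of cord was enzymatically and mechanically dissociated, with myelin and dead cells removed. With 1 library per condition no test between conditions was possible, no p-value is given, and the 95% intervals in parentheses cover counting error only. Bulk RNA-seq samples of the same study were not analysed here.

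Immediate early genes are transcribed within minutes of a stimulus, from promoters whose factors, such as SRF at CArG boxes, CREB at cAMP response elements and NF-kB, are already in the cell. Their products drive a later wave of genes, and many of the transcripts are short-lived and are degraded by factors that the same response induces. In microglia and macrophages the group marks recent activation, and enzymatic dissociation of tissue is itself known to induce it. No library without dissociation was analysed, so the part of dissociation in the levels below was not tested.

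To show the control regions in question, the 250 bases before the annotated start are printed for a member of 4 roles, an AP-1 subunit, an antiproliferative early gene, an RNA decay factor and an NF-kB inhibitor. The sequences are from RefSeq (GRCm38.p6) and read 5′ to 3′ on the strand of the gene, with the matched motif in capitals. Fos lies at chr12:85473640-85473889 on the plus strand, with its TATA box in capitals. Btg2 lies at chr1:134079156-134079405 on the minus strand, with a cAMP response element (CRE) in capitals. Zfp36 lies at chr7:28379229-28379478 on the minus strand, with a CArG box in capitals, and Nfkbia at chr12:55492648-55492897 on the minus strand, with an NF-kB motif in capitals.
Fos: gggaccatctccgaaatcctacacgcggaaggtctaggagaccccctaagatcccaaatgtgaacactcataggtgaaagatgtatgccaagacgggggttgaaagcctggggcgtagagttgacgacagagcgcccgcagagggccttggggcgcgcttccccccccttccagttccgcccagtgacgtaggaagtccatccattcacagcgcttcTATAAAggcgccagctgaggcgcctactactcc
Btg2: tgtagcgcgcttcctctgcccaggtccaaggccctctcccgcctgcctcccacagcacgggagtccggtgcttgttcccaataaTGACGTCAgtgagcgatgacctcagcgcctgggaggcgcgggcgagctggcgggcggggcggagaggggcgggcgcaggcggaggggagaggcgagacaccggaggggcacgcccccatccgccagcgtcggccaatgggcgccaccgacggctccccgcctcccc
Zfp36: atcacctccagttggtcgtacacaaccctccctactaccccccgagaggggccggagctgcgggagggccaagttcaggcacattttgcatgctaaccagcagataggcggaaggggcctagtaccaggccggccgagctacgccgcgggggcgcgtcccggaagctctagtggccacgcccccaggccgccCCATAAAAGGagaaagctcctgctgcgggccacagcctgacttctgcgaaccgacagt
Nfkbia: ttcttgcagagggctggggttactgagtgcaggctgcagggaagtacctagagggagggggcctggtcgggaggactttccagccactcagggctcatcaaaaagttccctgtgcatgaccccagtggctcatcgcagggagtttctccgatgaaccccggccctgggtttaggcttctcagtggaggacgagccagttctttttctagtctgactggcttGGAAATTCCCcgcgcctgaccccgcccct

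Of the 34 genes, 30 had a promoter window of 250 bases before to 50 after a start, and Egr1, Egr3, Ier2 and Nfkbiz had none. The CRE (TGACGTCA) stood in the windows of 4 of the 30, Btg2, Dusp1, Ppp1r15a and Maff, or 13.3%, against 2.03% of 27025 genes with a window. An Egr motif (GCGTGGGCG or GCGGGGGCG) stood in 9 of 30, or 30.0%, against 3.93% of all genes, and these 9 were Fosb, Fosl2, Klf2, Klf4, Zfp36, Dusp2, Nr4a1, Socs3 and Maff. A CArG box was found for Egr2 and Zfp36, against 1.81% of all genes, and the NF-kB motif (GGG and TTTCC, 2 bases apart) for Nfkbia alone, against 1.89%. The TATA box (TATAAA) was found in 7, or 23.3%, against 15.7%, the AP-1 motif (TGANTCA) in Zfp36l1, against 8.97%, and the heat shock element (GAA, TTC and GAA, each 2 bases apart) in none, against 0.662%. Both strands were searched, overlapping motifs were each counted, and a match describes the letters of the window and no binding. Motifs other than the CArG box were matched by the letters given.

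The 6 libraries held 492 to 9846 cells with median depths of 2269 to 5127 UMIs per cell. Clusters were those of the authors and were named from 82 markers of 14 cell types, of which 76 were detected and 65 were highest in their own cluster. The 6 markers of the MDM (monocyte-derived macrophage) list were nearly missing from sham vehicle microglia (60.6 CPM in sum) and stood at 4293 and 4264 CPM in the microglia cluster at 7 and 28 dpi. The 6 markers of microglia summed to 19224 CPM in sham and 6819 and 7581 CPM after injury in the same cluster. In the sham vehicle MDM cluster 46 of 185 cells had more UMIs of MDM than of microglia markers, as described with the MDM results. Of the 21016 cells, 44 barcodes occurred in more than 1 library, no mitochondrial gene was in the table, and a gene seen in fewer than 3 cells of a library had been set to 0 there, which touched Nr4a3 in the vehicle libraries and Egr3 in the sham PLX5622 library.

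Over all cells the 34 genes gave 389852 UMIs, and 3 of them, Zfp36l1, Jun and Junb, gave 31.0% of these. Zfp36l1 encodes an RNA-binding protein that promotes decay of AU-rich transcripts, and Jun and Junb are AP-1 subunits. At the other end, 12 members had fewer than 2000 UMIs each, and Nr4a3, an orphan nuclear receptor, had 7 UMIs in all. Summed over libraries, microglia were the cluster with the highest CPM for 9 members, among them Jun, Junb, Egr1, Btg2, Rhob and Socs3. Neutrophils led for 7, among them Fos, Dusp1 and Ier2. Endothelial cells led for 4, Klf2, Klf6, Ier3 and Nfkbia, and ependymal cells for 4, including the heat shock genes Hspa1a and Hspa1b. Atf3, a stress-induced partner of AP-1 proteins, was the 1 member that was highest in MDMs. UMIs were read from transcript ends, so levels were not divided by transcript length.

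Per library, the 34 genes took 1.28%, 0.378% and 0.414% of all UMIs in the sham, 7 dpi and 28 dpi vehicle libraries. Under PLX5622 the shares were 0.622%, 0.472% and 0.304%. The sham library stood highest under both diets. These shares mix cell types, so the clusters are given one by one, and the plot of summed CPM by cluster shows them together.

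**Figure D1:**
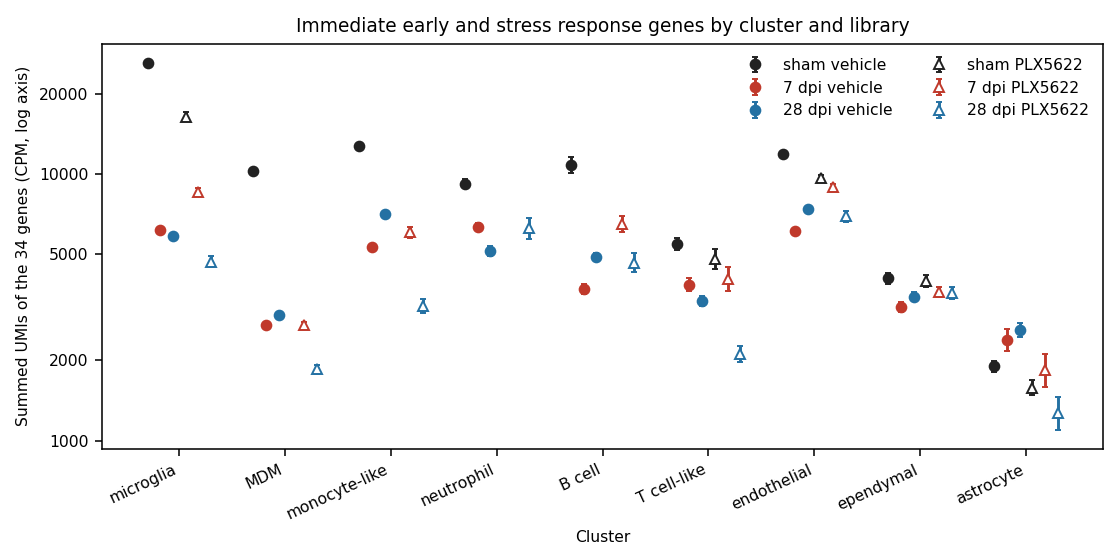
Summed UMIs of the 34 genes in CPM (log axis) for 9 clusters, with 1 point per library of at least 20 cells, filled circles for vehicle, open triangles for PLX5622, black for sham, red for 7 dpi, blue for 28 dpi, and bars for the 95% Poisson interval. Sham vehicle microglia lie highest at 26077 CPM, and the vehicle microglia at 7 and 28 dpi lie at 6165 and 5875 CPM.

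Sham vehicle microglia held the 34 genes at 26077 CPM (25859 to 26296) in 674 cells. At 7 dpi the level was 6165 CPM (6106 to 6225) in 2154 cells, and at 28 dpi 5875 CPM (5822 to 5928) in 3974 cells. The sham library alone was high, and both injured libraries were low and close to each other. For 7 dpi over sham the log2 ratio of the sum was -2.08 (-2.10 to -2.06), for 28 dpi over sham it was -2.15 (-2.17 to -2.13), and for 28 over 7 dpi it was -0.07 (-0.09 to -0.05). Among members with 20 or more UMIs over the pair of libraries, 24 of 32 were at least 2-fold lower at 7 dpi, against 26.6% of 9797 genes with the same minimum. At 28 dpi 26 of 32 were at least 2-fold lower, against 16.5% of 10054 genes. Nr4a2 and Nr4a3 were below the minimum at both times.

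In these CPM values most genes were lower in the injured microglia, with a median log2 ratio over all genes of -0.60 at 7 dpi and -0.47 at 28 dpi. Ribosomal protein genes took 12.4% of UMIs in sham and 22.4% and 19.6% after injury, and with totals that leave them out the log2 ratio of the sum was -1.91 and -2.03. Malat1, a nuclear RNA, stood at 49494, 19972 and 27993 CPM, and its part in the ratios was not tested. Taken relative to the median gene, 19 and 21 of 32 members were at least 2-fold lower at 7 and 28 dpi, against 7.26% and 4.72% of all genes. Scaling by edgeR's TMM or DESeq2's size factors, which moved the median gene by 0.49 to 0.65, gave 18 and 21 of 32 members at least 2-fold lower, against 6.76% and 4.43% of all genes with TMM and 6.59% and 4.44% with DESeq2. In the microglia with more UMIs of microglia than of MDM markers, 673 of 674, 1674 of 2154 and 3194 of 3974 cells, the ratio of the sum was -1.97 and -2.04, a split chosen after the data were seen.

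**Figure D2:**
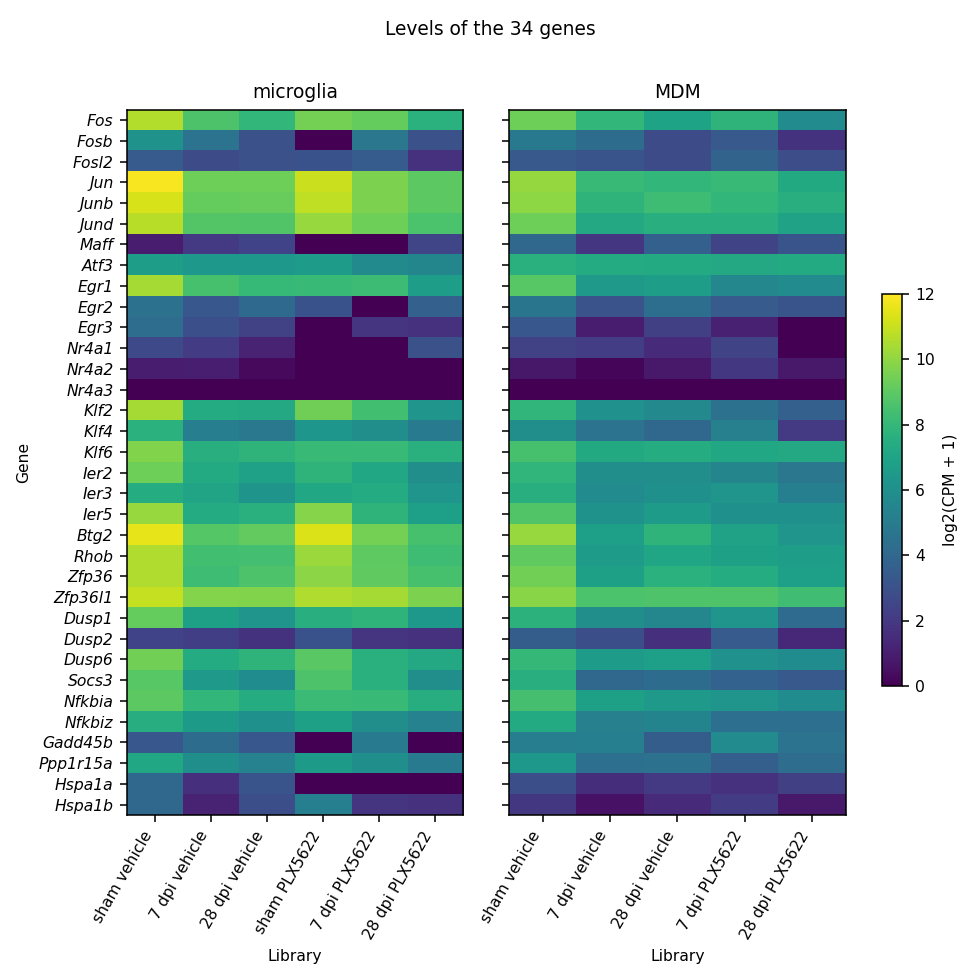
Levels of the 34 genes (rows, by role) as log2(CPM + 1) in microglia and MDMs of each library with at least 20 cells (columns). The sham vehicle column is the brightest for most genes in both clusters, while Atf3 differs little between the vehicle columns of a cluster.

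The AP-1 subunits pair with each other and bind the same short motif. Fos stood at 1563, 399 and 247 CPM in sham, 7 dpi and 28 dpi vehicle microglia, a log2 ratio of -1.97 (-2.04 to -1.90) and -2.66 (-2.74 to -2.58). Jun stood at 3811, 657 and 653 CPM and Junb at 2479, 579 and 587 CPM. In each the sham level was far above both injured levels, which for Jun and Junb lay within 10 CPM of each other and for Fos did not. Jund, often the most constant subunit, stood at 1674, 439 and 421 CPM, a ratio of -1.93 and -1.99. Fosb, a Fos relative of low level, went furthest at 28 dpi, at 69.2, 22.7 and 6.94 CPM and -3.32 (-3.79 to -2.86). Fosl2 differed by less than 2-fold at both times (-0.83 and -0.56), with 21 UMIs in sham.

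The stress-linked AP-1 partners differed from these. Atf3 stood at 106, 83.5 and 83.4 CPM in the vehicle libraries, a log2 ratio of -0.35 (-0.58 to -0.12) and -0.35 (-0.57 to -0.13), and so was nearer to its sham level than the median gene of the cluster. Maff, a small Maf protein, was counted only 2 times in sham microglia against 21 and 35 times at 7 and 28 dpi. Its log2 ratio of 1.70 (-0.33 to 4.84) and 2.21 (0.25 to 5.31) was the highest of the members at both times, and the interval at 7 dpi spans 0.

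The Egr zinc finger factors respond to the same ERK and SRF signals as Fos. Egr1 stood at 1341, 361 and 260.1 CPM, and its log2 ratio was -1.89 (-1.97 to -1.81) and -2.37 (-2.45 to -2.28). Egr2 stood at 21.5, 8.59 and 15.9 CPM, at least 2-fold lower only at 7 dpi, and Egr3 at 18.6, 6.52 and 4.04 CPM, lower at both times. Both had fewer than 50 UMIs in sham microglia. Among the Nr4a receptors, Nr4a1 was counted 11, 22 and 10 times, at -0.69 and -2.06 (-3.45 to -0.68).

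The Klf factors showed some of the lowest ratios. Klf2, a factor that holds myeloid and endothelial cells quiescent, stood at 1323, 167 and 151 CPM in the vehicle microglia, with -2.98 (-3.08 to -2.88) and -3.13 (-3.23 to -3.03). Klf4, its close relative, stood at 204, 34.4 and 27.2 CPM, with -2.57 and -2.90. Klf6 stood at 835, 185 and 225 CPM, with -2.17 and -1.89. For each the 2 injured libraries lay together and well under sham.

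Among the remaining early genes, Btg2, a p53-responsive antiproliferative protein, stood at 3018, 459 and 551 CPM, at -2.72 (-2.78 to -2.65) and -2.45 (-2.51 to -2.40). Ier5 stood at 1149.8, 167 and 194 CPM and Ier2 at 643, 162 and 114 CPM, both nuclear proteins of the growth factor and stress responses. Rhob, an endosomal small GTPase, stood at 1525, 331 and 335 CPM, about the same after injury at both times. Ier3, a survival factor induced by NF-kB, was nearer to sham at 7 dpi, with 172, 129 and 72.1 CPM and ratios of -0.41 (-0.59 to -0.23) and -1.25 (-1.44 to -1.06).

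Among the decay factors, Dusp phosphatases, Socs3, Nfkbia and Nfkbiz, Dusp2 was within 2-fold of sham at both times, Nfkbiz at 7 dpi, and the other 6 were at least 2-fold lower at both. The decay factors Zfp36 (tristetraprolin) and Zfp36l1 stood at 1509, 306 and 406 CPM and 1995, 861 and 856 CPM. The ratio of Zfp36l1, -1.21 and -1.22, was nearer to 0 than that of Zfp36, -2.30 and -1.89, at both times and with intervals that do not overlap. Dusp1, the nuclear phosphatase of p38 and JNK, stood at 567, 112 and 76.4 CPM, and Dusp6, the cytoplasmic phosphatase of ERK, at 700.4, 168 and 221 CPM. Dusp2, another nuclear phosphatase, had 9 UMIs in sham. Socs3, the inhibitor of cytokine receptors that signal through STAT3, stood at 474, 88.4 and 55.2 CPM, with -2.42 (-2.57 to -2.27) and -3.10 (-3.27 to -2.94). The NF-kB inhibitor Nfkbia at 495, 245 and 172 CPM and Nfkbiz, its atypical nuclear relative, at 176, 91.8 and 64.5 CPM differed less, at -1.01 and -1.53 and at -0.94 and -1.45.

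The general stress genes were mixed. Gadd45b, an activator of stress kinases, was higher at 7 dpi only, at 8.59, 18.2 and 8.7 CPM, 1.09 (0.37 to 1.89) and 0.02, with 18 UMIs in sham. Ppp1r15a, which reverses the block of translation by phosphorylated eIF2 alpha, stood at 146, 61.2 and 38.6 CPM, with log2 ratios of -1.26 and -1.92. The inducible Hsp70 genes Hspa1b and Hspa1a had 33 and 32 UMIs in sham and 8 and 14 at 7 dpi, giving -3.73 (-5.06 to -2.59) and -2.88 (-3.90 to -1.93). At 28 dpi they had 50 and 60 UMIs, giving -1.32 and -1.01, nearer to sham. These neighbours on chromosome 17 (34956429 to 34959238 and 34969359 to 34972156, GRCm38) are near-identical copies, so the split of reads between them is uncertain.

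**Figure D3:**
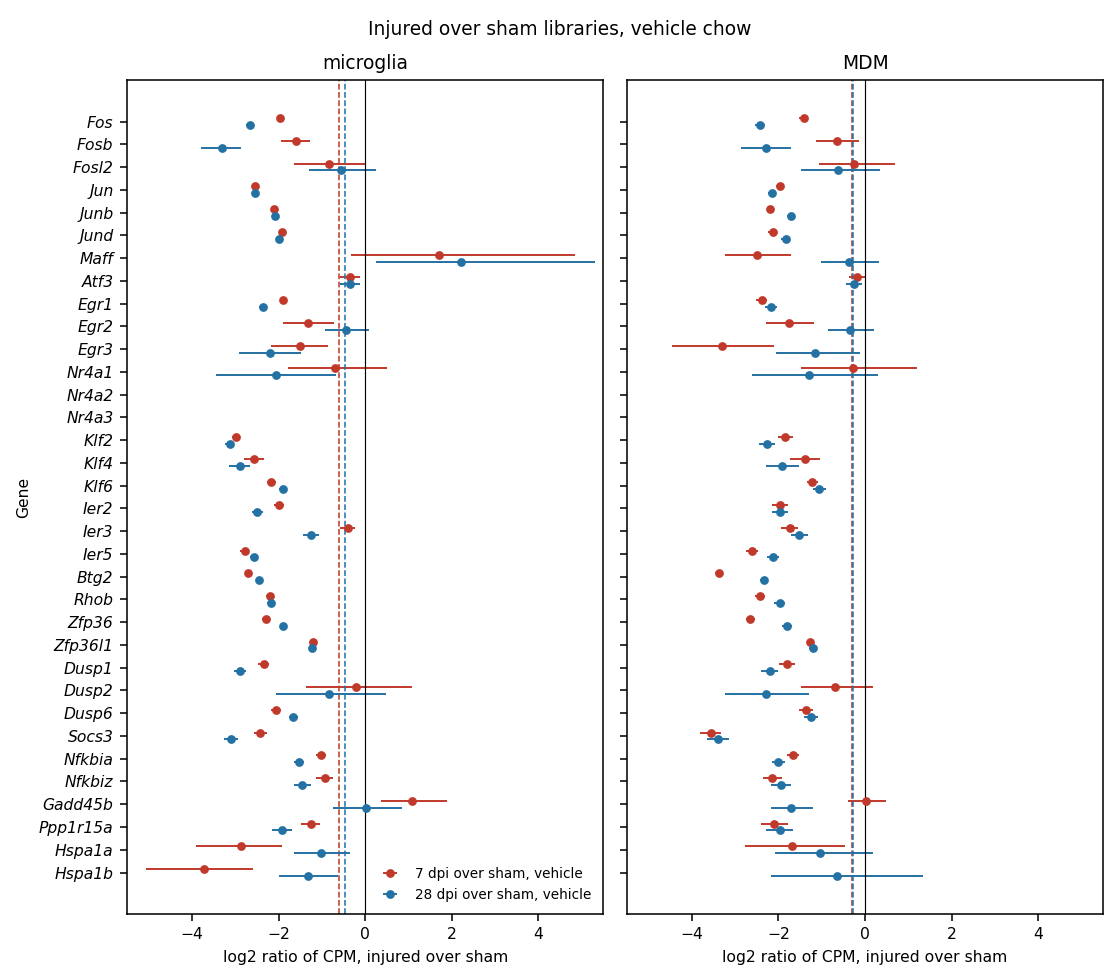
log2 ratio of CPM, injured over sham vehicle library, of each member with at least 20 UMIs, with 95% intervals, for 7 dpi (red) and 28 dpi (blue) in microglia and MDMs, where the dashed lines mark the median of all genes. Most members lie left of the dashed lines, with Gadd45b at 7 dpi (1.09) and Maff (1.70 and 2.21) furthest to their right in microglia. Less far to the right there lie Ier3, Atf3 and Dusp2 at 7 dpi and Egr2, Atf3 and Gadd45b at 28 dpi.

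The microglia left under PLX5622 were few, 29, 61 and 126 cells in sham, 7 dpi and 28 dpi. They held the 34 genes at 16422 CPM (15762 to 17104), 8569 CPM (8279 to 8867) and 4700.0 CPM (4497 to 4909.5). The order was sham, 7 dpi, 28 dpi, with a wider step between the injured libraries than under vehicle. Over their own sham the log2 ratio was -0.94 (-1.02 to -0.86) for 7 dpi and -1.80 (-1.89 to -1.72) for 28 dpi. Of 22 members at the minimum, 7 were at least 2-fold lower at 7 dpi, against 16.9% of 3148 genes, and 18 at 28 dpi, against 15.2% of 3474 genes. With TMM and DESeq2 factors 2 of 22 were lower at 7 dpi, against 4.92% and 5.08% of genes, and the sum was -0.45 and -0.50. At 28 dpi 14 of 22 were lower with both, against 4.20% and 4.95%, and the sum was -1.32 and -1.34. At 7 dpi the lowest ratios were those of Ier5 (-1.99, -2.40 to -1.58) and Btg2 (-1.89, -2.12 to -1.66), and the highest that of Dusp1 (0.26, -0.39 to 0.95). At 28 dpi the lowest were Klf2 (-3.20, -3.83 to -2.61) and Ier5 (-3.06, -3.58 to -2.56) and the highest Klf6 (-0.53, -1.09 to 0.05).

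Set against vehicle at the same stage, the sum in PLX5622 microglia was lower in sham (-0.67, -0.73 to -0.61), higher at 7 dpi (0.47, 0.42 to 0.53) and lower at 28 dpi (-0.32, -0.39 to -0.26). With cells weighted alike or thinned the 7 dpi ratio was 0.27 each time. In the thinned cells the median gene stood at 0.48, above the sum. In sham 8 of 28 members were at least 2-fold lower, against 11.2% of 8023 genes. Egr1 was the lowest, at 282 CPM against 1341 CPM (-2.25, -2.74 to -1.80), and Dusp1 and Klf6 followed among members with at least 10 UMIs in each library, at -1.63 and -1.56. Fosb had no UMI in the PLX5622 cells, which bounds its ratio at -1.71 or lower. At 7 dpi 1 of 30 members was at least 2-fold higher, against 6.04% of 9287 genes, and this was Socs3, at 198 CPM against 88.4 CPM (1.16, 0.80 to 1.51). At 28 dpi 4 of 31 were at least 2-fold lower, against 7.76% of 9717 genes, and of these Egr1 (-1.38, -1.85 to -0.94) and Klf2 (-1.02, -1.57 to -0.51) had more than 1 UMI in each library. Fosl2 and Hspa1b completed the 4, with 1 UMI each in the PLX5622 library. These differences compare pools of 29 to 126 cells with pools of 674 to 3974, and each direction rests on 1 pool. MDM markers in them summed to 14.1, 2014 and 935 CPM, below the vehicle microglia in each library.

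The level was carried by most sham vehicle microglia. After thinning each cell to 1000 UMIs, the median cell held 26 UMIs of the 34 genes in sham (10th to 90th percentile 9 to 44), 6 at 7 dpi (2 to 13) and 5 at 28 dpi (1 to 13). Only 3 of 548 sham cells held none, or 0.547% (0.113% to 1.59%), against 2.97% at 7 dpi and 7.66% at 28 dpi. A cell at the 90th percentile after injury thus lay under the lower quartile of sham cells, which was 17. The median sham cell had UMIs of 11 of the members and the median injured cell of 4.

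Single genes showed the same shift. Jun was seen in 88.3% (85.3% to 90.9%) of thinned sham microglia, 42.4% at 7 dpi and 38.0% at 28 dpi. Fos was seen in 58.4%, 29.2% and 17.8%, and Klf2 in 49.5%, 13% and 12.2%. Atf3 was seen in 7.30%, 7.81% and 7.20%, with intervals that overlap. In sham vehicle astrocytes, whose level of the group was the lowest of the clusters plotted, the thinned shares were 6.22% for Jun, 2.22% for Fos and 1.33% for Klf2. Before thinning, the microglia shares were 91.7%, 66.4% and 53.0% for Jun, at median depths of 3178, 2903 and 1686 UMIs, and that of sham astrocytes was 15.8% at a median of 2024 UMIs. Under PLX5622 the thinned median was 15, 6.5 and 3 UMIs of the group in 25, 54 and 113 cells.

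**Figure D4:**
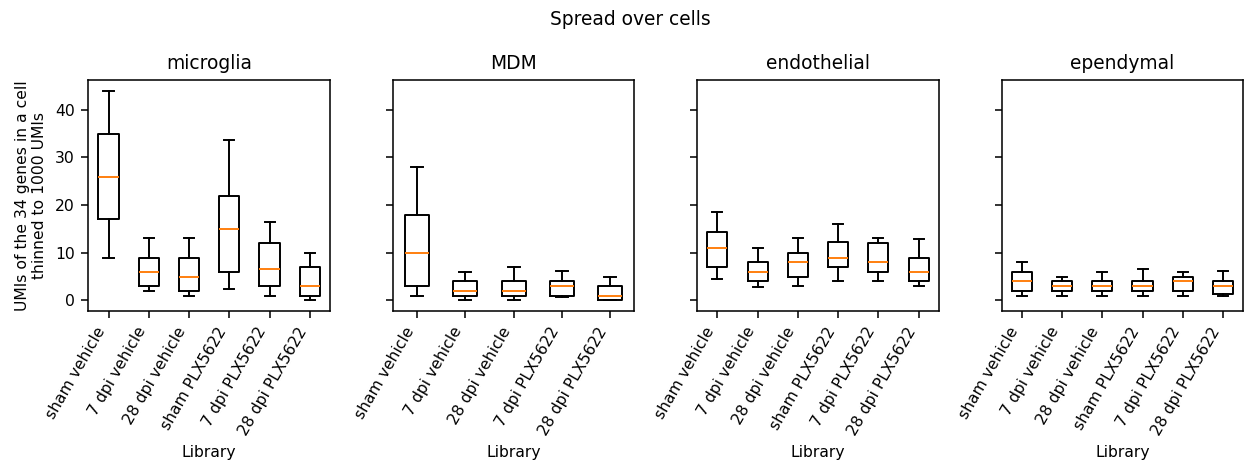
UMIs of the 34 genes per cell after each cell was thinned to 1000 UMIs, for microglia, MDMs, endothelial and ependymal cells of each library, with the line at the median, boxes for the quartiles and whiskers for the 10th and 90th percentiles. The sham vehicle microglia have a median of 26 and every other box shown has a median of 15 or less.

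The MDM cluster also had its highest level in the sham vehicle library, below that of microglia. The 34 genes stood at 10307 CPM (10140.3 to 10475) in 185 sham vehicle cells, at 2727 CPM (2704 to 2749.9) in 3023 cells at 7 dpi and at 2949.7 CPM (2921 to 2978) in 3313 cells at 28 dpi. The sham library was high and the injured libraries low, with log2 ratios of -1.92 (-1.94 to -1.89) and -1.80 (-1.83 to -1.78). At least 2-fold lower were 25 of 31 members at 7 dpi, against 15.2% of 10670 genes, and 27 of 32 at 28 dpi, against 9.45% of 10302 genes.

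The sham cluster differed from the injured ones in the markers of its cells. Of the 185 sham vehicle cells, 46 (24.9%) had more UMIs of the 6 MDM markers than of the 6 microglia markers, against 93.8% of the cells at 7 dpi and 86.2% at 28 dpi. The 46 cells held the 34 genes at 4891 CPM (4709 to 5079) and the other 139 cells at 13762 CPM. In cells with more MDM markers, the injured levels were 2580 and 2774 CPM and the log2 ratio to sham was -0.92 and -0.82. In these cells 12 of 30 members were at least 2-fold lower at 7 dpi, against 10.6% of 10504 genes, and 10 of 32 at 28 dpi, against 9.16% of 10056 genes. This split was chosen after the data were seen. The paper describes a major baseline subset of MDMs as high in Siglech, which is among the 6 microglia markers. It also reports Gpnmb, Spp1 and Lgals3, of the 6 MDM markers, as raised in MDMs by injury. The split therefore does not settle which sham cells were MDMs. Summed microglia markers in the whole cluster were 8738 CPM in sham and 2793 and 4265 CPM after injury, and summed MDM markers 10283, 37904 and 21789 CPM.

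**Figure D5:**
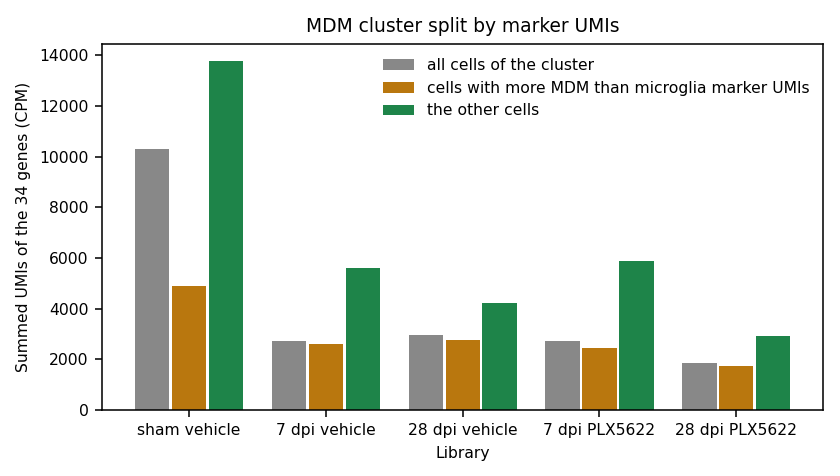
Summed UMIs of the 34 genes in CPM in the MDM cluster of each library with at least 20 cells, for all cells (grey), for cells with more MDM than microglia marker UMIs (orange) and for the other cells (green). In sham vehicle the orange bar is at 4891 and the green bar at 13762 CPM, and the orange bars of the injured libraries lie between 1718 and 2774 CPM.

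Gene by gene, Socs3 was the lowest in the whole MDM cluster, at 187, 15.8 and 17.7 CPM, with -3.56 (-3.80 to -3.32) and -3.40 (-3.65 to -3.14). Btg2 stood at 1138, 109.5 and 224 CPM, with -3.38 and -2.35. Fos stood at 657, 247 and 122 CPM, lower at 28 than at 7 dpi, and Jun at 1105, 282 and 247 CPM. For each of the 4 the sham level lay above both injured levels. Atf3 again lay close to its sham level, at 192, 168 and 162 CPM with -0.19 (-0.37 to -0.01) and -0.25 (-0.43 to -0.06). Gadd45b stood at 34.6, 35.1 and 10.6 CPM, level with sham at 7 dpi and lower at 28 dpi. Klf2, at 239, 66.5 and 49.8 CPM in the whole cluster, had a ratio of -1.85 at 7 dpi that turned to 0.37 in the cells with more MDM markers.

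MDMs of the PLX5622 libraries could be compared after injury, in 100 and 161 cells, since the sham library held 9. The sum was 2707 CPM (2631 to 2786) at 7 dpi, level with vehicle (-0.01, -0.05 to 0.03), and 1852 CPM (1779 to 1928) at 28 dpi, lower than vehicle (-0.67, -0.73 to -0.61). The PLX5622 cells at 7 dpi were deeper, with a median of 15945 UMIs against 5777 under vehicle. With cells thinned or weighted alike the 7 dpi ratio was 0.22 and 0.20, outside the counting interval. The median gene stood at 0.24 in the thinned cells, above the sum, and at 0.02 with cells weighted alike. At 7 dpi 1 of 30 members was at least 2-fold lower, against 4.5% of 10672 genes, and this was Klf2 (21.2 against 66.5 CPM, -1.65, -2.16 to -1.18). At 28 dpi 10 of 32 were at least 2-fold lower, against 5.2% of 10261 genes. The lowest were Klf4 (3.11 against 15.7 CPM, -2.34, -4.23 to -0.96) and Klf2 (-2.10, -2.94 to -1.36), then Btg2 (-1.59, -1.89 to -1.29) and Dusp1 (-1.42, -2.11 to -0.81). Gadd45b had the highest ratio, at 22.5 against 10.6 CPM (1.09, 0.46 to 1.67). With cells of more MDM markers the ratio of the sum at 28 dpi was -0.69. MDM markers in the PLX5622 cells summed to 67884 and 29244 CPM, above vehicle at both times.

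Endothelial cells had the highest level of the endothelial, ependymal and astrocyte clusters. They held the group at 11869.6 CPM (11489 to 12260.0) in sham vehicle, 6098 CPM (5971 to 6228) at 7 dpi and 7396 CPM (7218 to 7577) at 28 dpi, in 82, 351 and 420 cells. Sham was high, 7 dpi low and 28 dpi between, with -0.96 (-1.02 to -0.90) and -0.68 (-0.74 to -0.62). At least 2-fold lower were 14 of 29 members at 7 dpi, against 7.73% of 8180 genes, and 6 of 26 at 28 dpi, against 6.66% of 7146 genes. Klf2, the flow-induced factor of endothelium, stood at 2737, 1123 and 1622 CPM, and Klf4 at 883, 309.6 and 454 CPM. Nfkbia stood at 1087, 657 and 823 CPM. Hspa1a stood at 181, 14.1 and 78.8 CPM and had the lowest ratio at 7 dpi (-3.68, -4.50 to -2.92), while Zfp36l1 (699, 807 and 684 CPM) and Egr1 (61.5, 82.5 and 60.8 CPM) were within 2-fold of sham. Under PLX5622 the sum was 9690.3, 8923 and 6954 CPM, and at 7 dpi it was higher than under vehicle (0.55, 0.50 to 0.60). MDM markers in this cluster stood at 107 CPM in sham vehicle and at 7338 and 3965 CPM after injury. Neutrophil markers stood at 3562, 2253 and 421 CPM and erythroid markers at 2355, 152 and 239 CPM, both highest in sham like the group. The part of these markers in the ratios was not tested.

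The other immune clusters differed in the size of the ratio. In monocyte-like cells the group stood at 12737, 5307 and 7093 CPM in sham, 7 dpi and 28 dpi vehicle, with -1.26 (-1.31 to -1.22) and -0.84 (-0.90 to -0.79). At least 2-fold lower were 20 of 32 members at 7 dpi, against 10.9% of 7966 genes, and 9 of 29 at 28 dpi, against 8.68% of 5862 genes. Fos had the highest level of the members in sham, at 1769, 597 and 599 CPM, and Klf2 the next highest there, at 1339, 274 and 703 CPM. The ratio of Klf2 at 28 dpi was -0.93 on the log2 scale against -2.29 at 7 dpi. Unlike in MDMs, Atf3 was lower at 28 dpi, at 151, 131 and 40.8 CPM and -1.89 (-2.60 to -1.22), a difference between clusters that was not tested. MDM markers summed to 1982, 6777 and 3508 CPM in the monocyte-like cells, where erythroid markers summed to 1633, 101 and 40.8 CPM, and to 396, 12538 and 8782 CPM in B cells, where erythroid markers summed to 3071, 242 and 88.4 CPM. Their part in the ratios was not tested. B cells held the group at 10810.5, 3709 and 4889.9 CPM in 23, 190 and 329 cells, and 13 of 23 members were at least 2-fold lower at 7 dpi, against 24.3% of 4065 genes. Klf2, which keeps resting lymphocytes quiescent, stood there at 2593, 499 and 794 CPM and Btg2 at 1201, 201 and 377 CPM.

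Neutrophils and T cell-like cells also had their highest vehicle level in sham. Neutrophils stood at 9212, 6330.4 and 5139 CPM, with -0.54 (-0.62 to -0.46) and -0.84 (-0.93 to -0.76). In them Fos stood at 1187, 704 and 631 CPM and Dusp1 at 1173, 839 and 596 CPM, while Zfp36l1 was higher after injury, at 57.4, 243 and 176 CPM with 16 UMIs in sham. Markers of microglia in the neutrophil cluster summed to 169, 1036 and 1417 CPM and those of MDMs to 936, 4891 and 3656 CPM, and ribosomal protein genes took 2.94%, 9.22% and 8.68% of UMIs. T cell-like cells stood at 5486, 3853 and 3331 CPM, with -0.51 (-0.61 to -0.40) and -0.72 (-0.82 to -0.62), and Klf2 was their lowest member at both times (-1.42 and -1.84). MDM markers in them summed to 43.2, 6504 and 5478 CPM. Ependymal cells varied least over the libraries among the 9 clusters plotted, at 4059.6, 3174 and 3465 CPM under vehicle and 3959, 3619 and 3574 CPM under PLX5622. In them Zfp36l1 stood at 1417, 1225 and 1278 CPM, Hspa1b at 345, 157 and 298 CPM and Junb at 25.4, 77.2 and 100.1 CPM, so that Junb was higher after injury (1.61 (0.62 to 2.75) and 1.98 (1.02 to 3.10), with 10 UMIs in sham) while Hspa1b was lower at 7 dpi. In the ependymal cluster microglia markers summed to 287, 751 and 1232 CPM, MDM markers to 172, 7632 and 2859 CPM and neutrophil markers to 81.1, 4462 and 1989.9 CPM. The part of these markers and of the ribosomal share in the ratios of the 3 clusters was not tested.

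Astrocytes had the lowest vehicle levels of the 9 clusters plotted and the opposite order. The group stood at 1898 CPM (1803 to 1997) in sham vehicle, 2395 CPM (2176 to 2629) at 7 dpi and 2596 CPM (2443 to 2756) at 28 dpi, with 0.34 (0.18 to 0.49) and 0.45 (0.34 to 0.57). At 28 dpi 6 of 18 members were at least 2-fold higher, against 11.1% of 7449 genes, and these were Atf3, Junb, Fos, Zfp36, Egr1 and Zfp36l1. Junb stood at 44.9, 201 and 188 CPM, Fos at 30.8, 141 and 126 CPM and Zfp36 at 51.3, 174 and 157 CPM, each higher in both injured libraries than in sham. Atf3 had 2 UMIs in sham and 23 at 28 dpi. Rhob, the member with most UMIs in sham astrocytes, stood at 412, 218 and 225 CPM and was the other way. In the same cells Malat1 stood at 194680.0, 39722 and 73462 CPM and ribosomal protein genes took 1.87%, 13.3% and 10.7% of UMIs, and their part in the ratios was not tested.

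Markers of macrophages moved with these astrocyte values. All 6 MDM markers were detected after injury, and their sum stood at 926 CPM in sham vehicle, 13067 at 7 dpi and 10439 at 28 dpi, with 5 of 6 detected in sham. The 6 microglia markers summed to 736, 2482 and 2825 CPM, and the 4 erythroid markers, of which 3 and 2 were at 0 after injury, to 1458, 16.3 and 21.7 CPM. In the astrocytes with no UMI of these 12 markers, 84 of 310, 4 of 69 and 28 of 245 cells, the group stood at 1152, 759 and 1039 CPM. The log2 ratio in them was -0.60 (-2.90 to 0.98) and -0.15 (-0.86 to 0.50), so that the sign turned and both intervals held 0. Under PLX5622 the astrocytes stood at 1580.2, 1838 and 1267 CPM.

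Related genes outside the 34 were read from lists of the same pathways. Of 40 other early response genes in the table, 28 reached the minimum in microglia at 7 dpi, 15 of them were at least 2-fold lower and 2 higher, against 26.6% of all genes lower and 4.8% higher, with a median log2 ratio of -1.06 beside -0.60 for all genes. At 28 dpi 12 of 30 were lower and 3 higher, against 16.5% and 4.63% of all genes, with a median of -0.70 beside -0.47. Cebpd, a C/EBP factor of the acute phase, stood at -2.73 and -2.03, and Zfp36l2, the remaining Zfp36 relative on the list, stood at -2.06 and -1.60. The 12 other heat shock and chaperone genes had medians of -0.52 and -0.06, and Hspa5, the chaperone of the endoplasmic reticulum, stood at -1.32 and -0.98. The 18 NF-kB subunits, inhibitors and targets had medians of -0.69 and -0.59, with the cytokine Il1a at -3.01 and -1.94 and the chemokine Ccl4 the other way at 1.59 and 1.90. The integrated and oxidative stress genes (medians -0.38 and -0.22) and the upstream regulators (-0.89 and -0.52) lay above and below the median of all genes in turn, each at both times. In MDMs the NF-kB list stood lowest, with 14 of 18 at least 2-fold lower at 7 dpi, against 15.2% of all genes, and a median of -1.26 beside -0.30. The reference was again the sham cluster with its mixed markers.

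To find genes with a like pattern, log2 CPM was correlated with the summed level over 48 pairs of cluster and library with at least 50 cells, after the mean of each cluster was taken off. The pairs share libraries and depth, so Pearson's r is a description. Of 7207 genes, 17 of the 27 members that could be ranked stood in the first 100 and 11 in the first 20, as is partly built in, since they are summands. Ier5 (0.89), Jund (0.86), Klf6 (0.85), Btg2 (0.83) and Socs3 (0.82) stood first. Among the 10 genes outside the group with the highest r were H3f3b (0.79), Cmtm6 (0.79), Pnrc1 (0.78), Morc3 (0.77), Zfp36l2 (0.76), Mcl1 (0.75), Slu7 (0.75), Ppp1r10 (0.74) and Ifngr1 (0.73). Of these, Zfp36l2 and Mcl1 were on the list of other early response genes.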

How the data were processed

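Single-cell RNA-seq of 6 pooled libraries, 1 per condition, was read from counts. The deposited counts are UMIs per gene and cell, which the authors obtained with Cell Ranger (3.0.2 in the matrix headers; mouse mm10, GRCm38) and filtered and clustered with Seurat 3.2.0. The raw matrices held the same values as the table apart from genes seen in fewer than 3 cells of a library, set to 0 there, and from 2 to 121 barcodes left out in 4 libraries. UMIs of each gene and of the 34 genes together were summed per cluster and library and scaled to CPM, with exact 95% intervals from the Poisson distribution. Clusters and libraries with at least 20 cells were described. Log2 ratios of 2 libraries have exact conditional binomial 95% intervals and a floor of 3 counts for a 0. Such bounds count as past 2-fold only in the direction they bound. Counts of genes past 2-fold and their background used genes with 20 or more UMIs over the pair. Shares of cells, with Clopper-Pearson intervals, followed thinning to 1000 UMIs. Total UMIs per library ran from 2606149 to 35694246.

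The members and lists were chosen with earlier results of these data known. The 34 genes are all accounted for, and those named are the leading members of a cluster, those with the highest and lowest ratios, at most 3 genes of each other list and those of the 10 most alike genes that are reported here (1 is not reported). Genes of the clusters beyond these were added to show members across roles, after their values were seen. The alternatives were TMM and DESeq2 scaling, cells weighted alike, thinning, totals without 100 ribosomal protein genes, cells with at least 500 genes, other minimums of UMIs, sums without some members and, chosen after the data were seen, splits by markers. Doublets were left in, and Scrublet, run per library as an alternative, called 404 of 21016 cells (1.92%) but 1 of 9846 at 28 dpi under vehicle, where it had not worked. No test was possible. Steps were checked on simulated counts. The software was scanpy 1.11.5, scipy 1.17.1 and matplotlib 3.10.9 with pandas 2.3.3 and numpy 2.4.6 under Python 3.11.15, R 4.3.3, and edgeR 4.0.16 and DESeq2 1.42.0 for scaling factors only.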

Additional observations from a re-analysis of the deposited data

Results flagged for a closer look

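The summed log2 ratio of the 34 genes in astrocytes, 0.34 at 7 dpi and 0.45 at 28 dpi over sham under vehicle, was opposite in sign to that of microglia, and the difference between the clusters was not tested. Microglia and MDM markers were higher in the injured astrocytes, as given with those values.

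PLX5622 over vehicle was above 0 at 7 dpi and below 0 at 28 dpi in 6 clusters, and these differences were not tested. In 4 of them neither 95% counting interval held 0. There the summed log2 ratio was 0.47 at 7 dpi and -0.32 at 28 dpi in microglia, 0.55 and -0.089 in endothelial cells, 0.19 and -1.14 in monocyte-like cells, and 0.16 and -0.47 in oligodendrocyte lineage-like cells. In B cells (0.81 and -0.071) and T cell-like cells (0.07 and -0.66) 1 of the 2 intervals held 0. The 6 clusters come from the same 4 libraries, so they are not separate observations of the conditions.

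The barcodes that the count table leaves out, each with at most 199 genes, held UMIs of the 34 genes above the limit that a count of 0 allows. Their level was 1632 CPM in 121 sham vehicle barcodes, 3218 CPM in 102 sham PLX5622 barcodes and 1499 CPM in 29 barcodes of the 7 dpi PLX5622 library. In each of these libraries the level was below that of the cells kept, 12812, 6216 and 4722 CPM.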

How the results depend on the processing

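In microglia the summed log2 ratio at 7 and 28 dpi over sham under vehicle, -2.08 and -2.15, was -1.45 and -1.65 with TMM factors, -1.43 and -1.66 with DESeq2 factors, -1.94 and -1.92 with cells weighted alike, -1.97 and -2.10 with thinned cells, -1.91 and -2.03 without ribosomal totals, -1.97 and -2.04 in cells of their own markers, and -2.13 and -2.24 without Zfp36l1, Jun and Junb. In MDMs, -1.92 and -1.80 became -1.56 and -1.48 (TMM), -1.57 and -1.49 (DESeq2), -2.08 and -2.03 (weighted alike), -2.09 and -1.98 (thinned), -1.99 and -1.87 (without the 3 members) and -0.92 and -0.82 (own markers), and -1.96 at 7 dpi without called doublets. The counts of 25 and 27 members became 12 and 10 in cells of their own markers. For PLX5622 over vehicle at 28 dpi, microglia (-0.32) gave -0.55 weighted alike, -0.42 thinned, -0.25 without ribosomal totals, -0.42 by own markers and -0.39 without the 3 members, and the count of 4 became 7 weighted alike and 2 with a minimum of 100 UMIs. MDMs (-0.67) gave -0.74 and -0.73 with TMM and DESeq2, -0.47 weighted alike, -0.59 thinned and -0.73 without the 3 members. The sign of these 6 sums held in every alternative run. In MDMs the sum of PLX5622 over vehicle at 7 dpi, -0.01, did not hold its sign. It was 0.20 weighted alike, 0.22 thinned and 0.03 without called doublets, where the median gene stood at 0.02, 0.24 and 0.02. Of single members, 5 cases were counted as turned in sign, a count without those turned by scaling factors. They were Fosl2 in microglia at 28 dpi under PLX5622 over vehicle, 1.21 weighted alike, and, in MDMs of their own markers, Hspa1a (0.19 and 0.82 at 7 and 28 dpi), Klf2 (0.37 at 7 dpi) and Nr4a1 (0.063 at 28 dpi). The cells used differ in the last 4, and the cause was not tested further. Scaling factors turned others. With TMM the median gene of vehicle microglia over sham stood at 0.037 and 0.033 at 7 and 28 dpi. Atf3 lay 0.25 and 0.11 above that gene, and so was positive, while its ratio in CPM was negative. Ier3 in microglia at 7 dpi and Atf3 in MDMs at both times turned likewise. Beyond the 5 cases, 1049 values of single members under an alternative lay within the counting interval of the value given and 424 outside it. No paired analysis was possible because each condition was 1 pooled library, and no library could be left out for the same reason. Counting error was smallest in the vehicle microglia and MDMs and limited the PLX5622 clusters and the members with few UMIs most.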
